A study of Mus musculus with 16 samples.

Results

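Genes of the hepatic detoxification machinery were followed in liver RNA of mice kept on a low-fat diet or on a diet rich in fat, fructose and cholesterol. The members were chosen by gene symbol alone, as the protein-coding genes in either deposited table that belong to the glutathione transferases (Gst, Mgst), UDP-glucuronosyltransferases (Ugt), sulfotransferases (Sult), carboxylesterases (Ces), flavin monooxygenases (Fmo), aldo-keto reductases (Akr), aldehyde dehydrogenases (Aldh), epoxide hydrolases (Ephx), quinone oxidoreductases (Nqo) or the B, C and G subfamilies of ABC transporters (Abc). This gave 73 members among the 5205 genes in either table, a choice made with earlier results of these data known. The mouse annotation (GENCODE M21) holds 164 such genes. Both tables hold only genes with an unadjusted diet p of at most 0.0499, so a member that is not listed has no value here, and neither Nqo1 nor Nqo2 was listed.

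Livers came from 16 male C57BL6 mice in 4 groups of 4, each sequenced as 1 bulk RNA library. TSP1F/F mice carried floxed Thbs1, the gene for thrombospondin 1, and no Cre. In TSP1ΔPf4 mice the same floxed gene was recombined by Cre under the Pf4 promoter, which acts in megakaryocytes and platelets, so the hepatocytes of both genotypes kept a floxed Thbs1. Each genotype was fed either a low-fat (LF) diet or the AMLN diet during 32 weeks. The diet comparison asks what the diet does to these genes in each genotype, and the genotype comparison asks whether deletion of Thbs1 in platelets alters them. Age at the start of the diets is not given in the labels, and the paper's supplement lists an age for both genotypes without tying it to the diets. Library totals ran from 18135112 to 26649603 read pairs in TSP1F/F LF mice, from 18362810 to 39753019 in TSP1F/F AMLN mice, from 17127965 to 20700888 in TSP1ΔPf4 LF mice and from 23221536 to 31363462 in TSP1ΔPf4 AMLN mice.

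Enzymes of the liver handle drugs, hormones, bile acids and reactive by-products of lipid metabolism in stages. Oxidases, reductases and hydrolases expose or create a reactive group, transferases attach glutathione, glucuronic acid or sulfate to it, and ABC transporters pump the product into bile or blood. In mice many of these genes sit in tandem clusters of close relatives, are expressed mainly in hepatocytes, and differ between the sexes or respond to nuclear receptors and to the oxidative-stress factor Nrf2.

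Thbs1 itself was listed only in the TSP1F/F table, where its level in FPKM (fragments scaled to gene length and library size) was 0.0516, 0.300, 0.118 and 0.0618 in the LF mice and 0.319, 0.532, 2.19 and 1.67 in the AMLN mice. Every AMLN mouse lay above every LF mouse, with a log2 fold change of 3.15 (SE 0.78) and an adjusted p of 0.140 (edgeR quasi-likelihood test, Benjamini-Hochberg). For the TSP1ΔPf4 mice its values were not analysed here, so the gene does not check the genotype labels.

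Some libraries stood apart. In TSP1F/F mice the listed genes took 36.1% of the library of LF mouse 3 and 19.9%, 24.3% and 21.4% of those of LF mice 1, 2 and 4. In TSP1ΔPf4 mice they took 65.25% of the library of LF mouse 3 and 48.8%, 45.8% and 51.0% of the others. LF mouse 3 had the highest level of its group for 11 of the 18 members that were lower on AMLN in TSP1F/F mice and for 29 of the 35 in TSP1ΔPf4 mice, and TSP1ΔPf4 AMLN mouse 4 was the highest of its group for 32 of those 35. In these groups the members that were lower on AMLN were thus mostly high together in the same mouse. In TSP1F/F AMLN mice the highest level of the 18 was split between mouse 2 (10), mouse 4 (7) and mouse 3 (1). Values without 1 mouse are given beside a member where they ended or made its call or moved its diet value by over 1.5 times.

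Under the AMLN diet most ABC transporters, the glutathione transferases Gsta1, Gsta2, Gstm1, Gstm2 and Gstm3 and both flavin monooxygenases were listed at higher levels. All listed glucuronosyltransferases and carboxylesterases, the soluble epoxide hydrolase and the Akr1c reductases were listed at lower levels. In TSP1F/F mice 21 of 39 listed members had a higher mean FPKM on AMLN and 18 a lower one, where 67.5% of all listed genes were higher. In TSP1ΔPf4 mice 17 of 52 were higher and 35 lower, where 44.2% of all listed genes were higher. The median level of the lower members was 147 FPKM against 1.28 FPKM for the higher ones in TSP1F/F mice, and 98.3 against 10.5 FPKM in TSP1ΔPf4 mice. Exceptions included Gstm1, abundant and higher, and Ces4a, scarce and lower. Because the tables were filtered on this same contrast, these counts describe the listing and are not evidence about the families. No tested member changed its diet direction under TMM scaling, the authors' size factors, DESeq2 or any fit that left out 1 mouse.

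Of 18 members in both tables, 18 had the same diet direction in both genotypes, 9 higher and 9 lower, where the share over all 752 genes in both tables was 93.5%. The groups did not overlap for 22 of 39 members in TSP1F/F mice, beside 47.2% of all listed genes, and for 24 of 52 in TSP1ΔPf4 mice, beside 48.7%. Calls needed an adjusted p below 0.05 together with a log2 fold change beyond 0.25 in either direction. In TSP1F/F mice 1 of 36 tested members was called (Gstm3), where 2.48% of all genes tested were called and 2.39% were called raised, and 31 of 36 had an unadjusted p under 0.05, where the share of all genes was 80.2%. In TSP1ΔPf4 mice 1 of 50 tested members was called (Abcg5), beside 2.98% called and 1.46% called raised, and 42 of 50 had an unadjusted p under 0.05, beside 85.8%. In simulated counts with 4 mice per diet the test called 10% of 2-fold and 83% of 8-fold changes for TSP1F/F and 32% and 99% for TSP1ΔPf4 mice. There each fold was given to 100 genes only, whereas most listed genes had an unadjusted p under 0.05. The share called by an adjusted p depends on how many genes differ, so these rates need not hold for the members.

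The members' median log2 fold change was 0.16 in TSP1F/F mice, between 18 higher and 18 lower, and the median of all genes tested was 1.15. In TSP1ΔPf4 mice these medians were −0.61 and −0.54. Scaling mattered to these figures. The factors of TMM and DESeq2 were computed from the listed genes only, which were selected on the diet contrast. With the authors' size factors the median of all genes tested was 1.15 in TSP1F/F mice and −0.52 in TSP1ΔPf4 mice. That of the members was then 0.16 and −0.60. The median of all genes tested was 0.97 with TMM and 0.78 with DESeq2 in TSP1F/F mice and −0.21 and −0.20 in TSP1ΔPf4 mice, and that of the members was −0.01 and −0.20 in TSP1F/F mice and −0.29 and −0.27 in TSP1ΔPf4 mice. Over all genes the calls, raised and lowered, were 50 and 2 in TSP1F/F mice (56 and 6 with TMM, 285 and 456 with DESeq2) and 45 and 47 in TSP1ΔPf4 mice (160 and 38 with TMM, 1010 and 366 with DESeq2, 44 and 34 with the authors' size factors). DESeq2 called 16 of the 36 members in TSP1F/F mice, 4 raised and 12 lowered, and 18 of the 50 in TSP1ΔPf4 mice, 15 raised and 3 lowered, beside 35.4% of 2096 and 44.5% of 3089 genes tested. Those raised in TSP1F/F mice were Abcg1, Akr1b10, Gstm3 and Sult1e1, and those lowered included Aldh8a1, Aldh9a1, Ces1f, Ces3b, Ephx2, Gsto1, Gstp1, Gstz1, Sult2a8, Ugt2a3 and Ugt3a1. In TSP1ΔPf4 mice Abcb1a, Abcc1, Abcc4, Abcg1, Abcg3, Abcg5, Abcg8, Aldh1a7, Aldh1b1, Aldh3a2, Aldh3b1, Fmo5, Gsta1, Gstm1 and Gstm3 were called raised and Gstt2, Sult2a7 and Ugt2b5 lowered by DESeq2. There the members' values were 0.28 to 0.46 higher with TMM and 0.29 to 0.53 higher with DESeq2 than by edgeR on library totals, so that 26 of the 34 negative values shrank by over 1.5 times with DESeq2. Those values are given with each family.

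**Figure D1:**
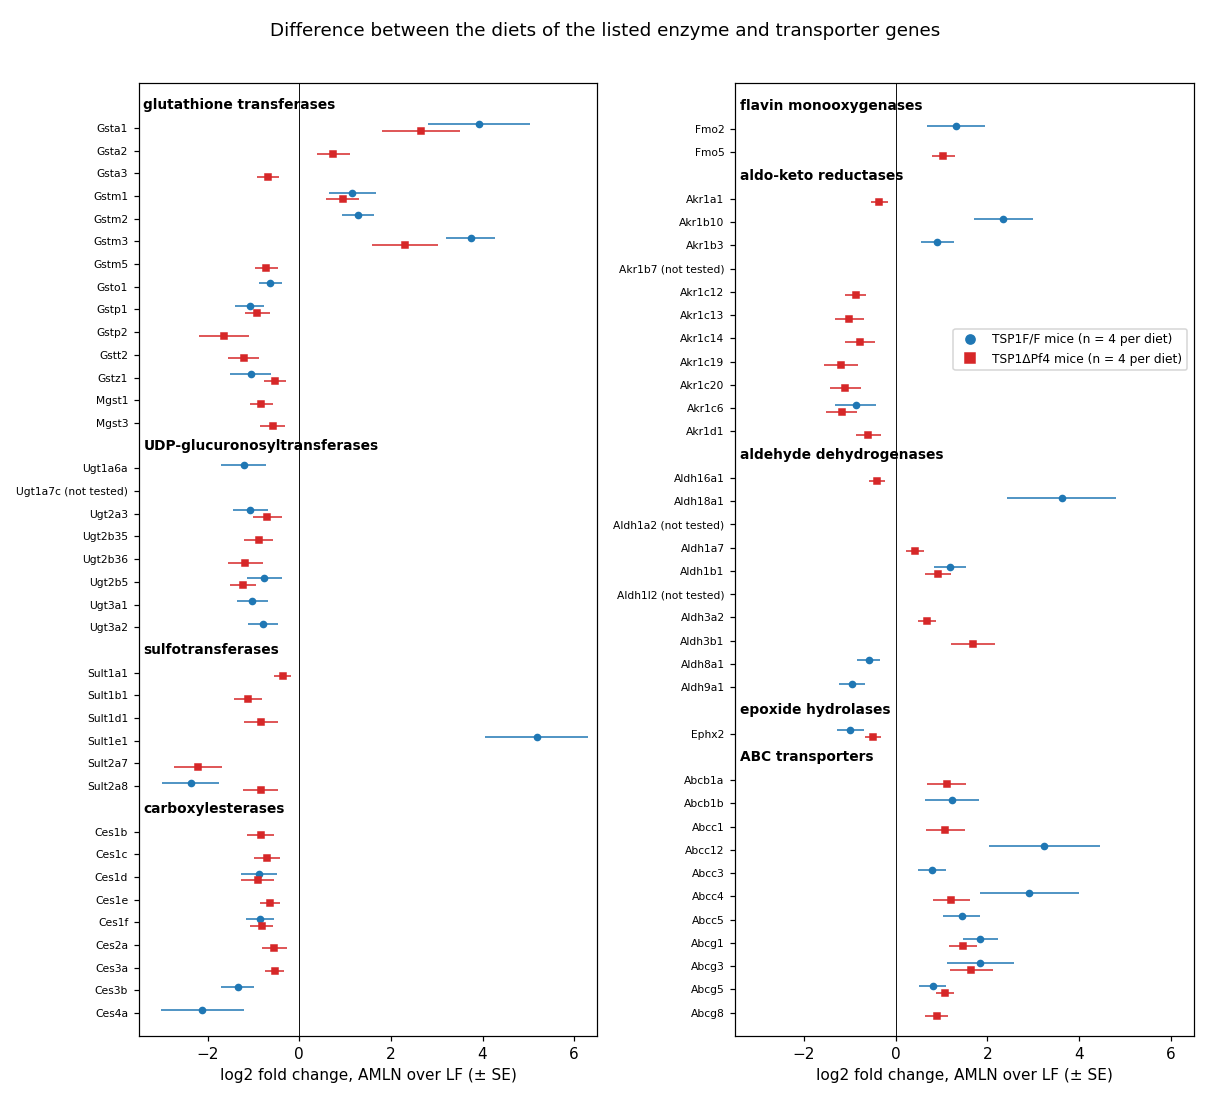
Difference between the diets for the listed members, grouped by family. The horizontal axis is the log2 fold change of AMLN over LF from edgeR with its standard error, circles for TSP1F/F mice and squares for TSP1ΔPf4 mice (n = 4 per diet), and members that did not pass the filter on low counts are marked as not tested. Ugt and Ces members lie left of 0 and the Abc members shown with a value lie right of it.

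With as many members above 0 as below it, the members' median in TSP1F/F mice was unstable. It was 0.61 to 0.83 without any 1 LF mouse (37 tested) and −0.49 without AMLN mouse 2 (35 tested). In TSP1ΔPf4 mice it ranged from −0.81 without AMLN mouse 4 to −0.47 without LF mouse 3. In TSP1F/F mice the levels of the 18 lower members, summed over genes, were 4371, 6557, 10035 and 5170 FPKM in LF mice and 2210, 4147, 2122 and 4003 FPKM in AMLN mice. The sum of the 35 lower members of TSP1ΔPf4 mice was 9620, 10315, 17802 and 12756 FPKM on LF and 6242, 6900, 5717 and 9795 FPKM on AMLN. The sums of the diets did not overlap in TSP1F/F mice, whereas TSP1ΔPf4 AMLN mouse 4 lay just above LF mouse 1. The 21 higher members of TSP1F/F mice summed to 316, 407, 127 and 552 FPKM on LF and 1067, 1118, 675 and 416 FPKM on AMLN, so AMLN mouse 4 lay inside the LF range. In bulk tissue, fewer cells of a type and less RNA per cell cannot be told apart.

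Members that lie near each other mostly shared a direction. Members of 1 family whose genes lie within 1 Mb of each other formed 14 clusters with 43 members, and 12 clusters held members of 1 direction only. The largest was the Akr1c cluster on chromosome 13, 6 members over 474 kb, all lower. The Ces1 cluster on chromosome 8 held 5 members over 223 kb and its neighbouring Ces2, Ces3 and Ces4 cluster 4 members over 416 kb, again all lower. The clusters of mixed direction were the Gstm genes on chromosome 3, with Gstm5 lower and Gstm1, Gstm2 and Gstm3 higher, and the Sult genes on chromosome 5, with Sult1e1 higher and Sult1b1 and Sult1d1 lower. Close relatives can share reads, so their values are not independent of each other. Directions were pooled over the listings of both genotypes, and the share for other neighbouring genes was not computed.

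Carboxylesterases cleave ester bonds in drugs and in stored lipid, and all 9 listed Ces genes were lower on AMLN. Ces1d, a triacylglycerol hydrolase of the hepatocyte, had 255, 621, 505 and 422 FPKM in TSP1F/F LF mice and 138, 313, 167 and 363 FPKM in AMLN mice. In TSP1ΔPf4 mice it had 446, 569, 806 and 699 FPKM on LF and 149, 333, 268 and 592 FPKM on AMLN. The groups overlapped in both genotypes, through LF mouse 1 in TSP1F/F mice and AMLN mouse 4 in TSP1ΔPf4 mice, and the log2 fold changes were −0.88 (SE 0.39) and −0.91 (SE 0.36). Ces1f, a relative found at lipid droplets, had log2 fold changes of −0.86 and −0.82.

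Ces1c, which encodes an esterase secreted into plasma, was the most abundant listed esterase, with 1406 ± 347 FPKM on LF and 860 ± 347 FPKM on AMLN in TSP1ΔPf4 mice (mean ± SD, n = 4). Ces3a lay below the LF range in every TSP1ΔPf4 AMLN mouse, at 435, 498, 349 and 613 FPKM against 643, 688, 687 and 726 FPKM. Ces3b showed the same separation in TSP1F/F mice, with 131, 106, 163 and 140.0 FPKM on LF and 60.6, 88.2, 25.9 and 37.9 FPKM on AMLN. The scarce Ces4a, below 1 FPKM on average, had a log2 fold change of −2.11 (SE 0.91) in TSP1F/F mice. Ces1b (−0.84), Ces1e (−0.63) and Ces2a (−0.54) were lower in TSP1ΔPf4 mice. With DESeq2 the values of TSP1ΔPf4 mice were −0.49 for Ces1b, −0.37 for Ces1c (−0.71 by edgeR), −0.57 for Ces1d, −0.31 for Ces1e, −0.47 for Ces1f, −0.22 for Ces2a and −0.22 for Ces3a (−0.53 by edgeR).

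Ephx2, the soluble epoxide hydrolase that opens epoxides of fatty acids, separated the diets in both genotypes. Its levels were 652, 578, 603 and 701 FPKM in TSP1F/F LF mice and 260.0, 460.1, 216 and 339 FPKM in AMLN mice. In TSP1ΔPf4 mice they were 680, 591, 690.3 and 691 FPKM on LF and 479, 491, 407 and 509 FPKM on AMLN. All 8 AMLN mice lay below all 8 LF mice. The log2 fold changes were −0.99 (SE 0.29, adjusted p 0.230) and −0.49 (SE 0.17, adjusted p 0.153) by edgeR, so neither was called. With DESeq2 they were −1.33 (adjusted p 0.00546), which passed, and −0.16.

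Flavin monooxygenases oxidise nitrogen and sulfur in xenobiotics, and the listed ones were higher on AMLN. Fmo5, an abundant liver member that oxidises ketones, had 78.3, 95.8, 55.3 and 67.6 FPKM in TSP1ΔPf4 LF mice and 117, 195, 177 and 121 FPKM in AMLN mice. Each AMLN mouse was above each LF mouse, with a log2 fold change of 1.04 (SE 0.25) and an adjusted p of 0.0703 by edgeR, 0.0487 with TMM scaling and 0.000919 with DESeq2. Fmo2 in TSP1F/F mice ranged from 0.541 to 4.04 FPKM on LF and from 1.46 to 10.1 FPKM on AMLN, and the groups overlapped (1.32, and 0.84 without AMLN mouse 3).

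Aldo-keto reductases turn aldehydes and ketones into alcohols. Akr1c6, a 17β-hydroxysteroid dehydrogenase of the liver, had 796, 1405, 2230 and 716 FPKM in TSP1F/F LF mice and 393, 869, 501 and 1058 FPKM in AMLN mice. In TSP1ΔPf4 mice the values were 649.9, 662, 1454 and 854 FPKM on LF and 247, 367, 316 and 667 FPKM on AMLN. Mouse 3 was the highest LF mouse in both genotypes and mouse 4 the highest AMLN mouse. Its log2 fold changes were −0.87 (SE 0.45) and −1.18 (SE 0.35, adjusted p 0.105), and they were −0.46 and −0.85 without LF mouse 3. Without TSP1ΔPf4 AMLN mouse 4 the second was −1.54 with an adjusted p of 0.0466 by edgeR.

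The neighbours Akr1c12 (−0.87), Akr1c13 (−1.01), Akr1c14 (−0.77), Akr1c19 (−1.20) and Akr1c20 (−1.10), relatives that act on steroids and other carbonyls, were lower in TSP1ΔPf4 mice. So were Akr1d1 (−0.59), the 5β-reductase of bile acid synthesis, and Akr1a1 (−0.35), an aldehyde reductase with 176 FPKM on LF and 138 FPKM on AMLN. Values with DESeq2 were −0.53 for Akr1c12, −0.64 for Akr1c13, −0.42 for Akr1c14 (−0.47 by edgeR without LF mouse 3), −0.24 for Akr1d1 and −0.01 for Akr1a1, so the Akr1a1 difference depended on the scaling. With the authors' size factors Akr1a1 was −0.33. The 3 Akr1b genes of chromosome 6, listed in TSP1F/F mice only, were higher and scarce. Akr1b10, which reduces retinal and aliphatic aldehydes, had 0.103, 0.182, 0.25 and 0.0637 FPKM on LF and 0.436, 0.826, 0.904 and 0.894 FPKM on AMLN, with a log2 fold change of 2.35 (SE 0.64). Akr1b3, the aldose reductase of the polyol pathway, had a log2 fold change of 0.91 (0.53 with DESeq2), and Akr1b7 was higher at a mean of 0.164 FPKM on LF and 0.893 FPKM on AMLN but did not pass the filter on low counts.

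Aldehyde dehydrogenases oxidise aldehydes to acids, and they went in both directions. Aldh1b1, a mitochondrial enzyme for acetaldehyde and other short aldehydes, had 6.43, 6.93, 2.42 and 7.76 FPKM in TSP1F/F LF mice and 17.5, 12, 11.2 and 12.8 FPKM in AMLN mice. The TSP1ΔPf4 mice had 11, 10.8, 7.19 and 10.3 FPKM on LF and 22.1, 23.1, 20 and 9.18 FPKM on AMLN. The groups were separate in TSP1F/F mice (log2 fold change 1.19, SE 0.36), and in TSP1ΔPf4 mice (0.92, SE 0.29) AMLN mouse 4 lay within the LF range (1.14 without it, adjusted p 0.0407). Aldh3a2, the fatty aldehyde dehydrogenase, had 109 to 159.6 FPKM on LF and 181 to 241 FPKM on AMLN in TSP1ΔPf4 mice. Its log2 fold change was 0.69 (SE 0.20, adjusted p 0.104) by edgeR, and it passed with TMM scaling (1.01, adjusted p 0.0379).

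Aldh3b1 (1.69) and Aldh1a7 (0.42; 59.6 FPKM on LF and 79.4 FPKM on AMLN) were higher in TSP1ΔPf4 mice, and Aldh16a1 (−0.41) was lower. With DESeq2 Aldh1a7 was 0.74 and Aldh16a1 −0.08, so the latter difference depended on the scaling. Aldh16a1 was −0.39 with the authors' size factors. Among TSP1F/F mice Aldh18a1 (3.62, SE 1.19), which makes the proline precursor pyrroline-5-carboxylate, was higher at a mean of 0.0451 FPKM on LF and 0.558 FPKM on AMLN (6.83 without LF mouse 2). Aldh1a2, a retinoic acid synthase, had no read in any TSP1F/F LF mouse nor in AMLN mouse 2, and 33 of its 52 reads in AMLN mice came from mouse 3. Its AMLN mean of 0.179 FPKM was at least 2.73-fold higher than the level that 3 counts per library would give. Aldh1l2, a mitochondrial folate enzyme, was also higher in TSP1F/F mice, with 35 of 57 AMLN reads in 1 mouse, and neither passed the filter on low counts. Aldh9a1 (−0.95, SE 0.28), an enzyme of carnitine synthesis, and Aldh8a1 (−0.59, SE 0.25) were lower in every TSP1F/F AMLN mouse than in any LF mouse, at means of 126 and 65.5 FPKM on LF and 65.2 and 43.6 FPKM on AMLN (Aldh8a1 −0.93 with DESeq2).

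Glutathione transferases join glutathione to electrophiles such as epoxides and lipid aldehydes, and here members of the alpha and of the mu class were found in both directions. Gstm3 (ENSMUSG00000004038, chr3:107963696-107969283, minus strand, GRCm38), a mu-class enzyme, had 5.61, 3.48, 1.39 and 2.98 FPKM in TSP1F/F LF mice and 57.1, 67.1, 40.1 and 15.5 FPKM in AMLN mice. All 4 AMLN mice were above all 4 LF mice. Gstm3 rose with a log2 fold change of 3.74 (SE 0.53) and an adjusted p of 0.0209 by edgeR, the call named above. The adjusted p was between 0.0521 and 0.0821 in the 5 fits without AMLN mouse 1, 2 or 3 or LF mouse 2 or 4, with log2 fold changes from 3.48 to 4.10 over all 8 such fits.

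In TSP1ΔPf4 mice Gstm3 had 7.94, 5.79, 1.69 and 2.99 FPKM on LF and 10, 38.3, 40.7 and 2.86 FPKM on AMLN. AMLN mice 2 and 3 were high, whereas mouse 4 lay within the LF range. The log2 fold change was 2.32 (SE 0.72) with an adjusted p of 0.119 by edgeR, and without AMLN mouse 4 it was 2.68 with an adjusted p of 0.0481.

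Gsta1 (ENSMUSG00000074183, chr9:78230656-78242684, plus strand), an alpha-class enzyme that also reduces lipid hydroperoxides, was low on LF. It had 0, 2.30, 0 and 0.510 FPKM in TSP1F/F LF mice and 5.82, 17.9, 6.37 and 12.8 FPKM in AMLN mice. In TSP1ΔPf4 livers it had 0, 0.303, 1.65 and 0.111 FPKM on LF and 2.55, 5.55, 2.37 and 2.34 FPKM on AMLN. No AMLN mouse of either genotype overlapped its LF group. The log2 fold changes were 3.93 (SE 1.11, adjusted p 0.205) and 2.65 (SE 0.85, adjusted p 0.128) by edgeR, and the second was 4.44 with an adjusted p of 0.0230 without LF mouse 3. Its neighbour Gsta2 was also higher in TSP1ΔPf4 mice (0.74, SE 0.36; 0.34 without AMLN mouse 2).

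The abundant Gstm1 had 237, 309, 77.3 and 454 FPKM in TSP1F/F LF mice and 823, 826, 481 and 269.9 FPKM in AMLN mice. TSP1ΔPf4 mice had 549, 429, 212 and 293 FPKM on LF and 558, 1013, 922 and 366 FPKM on AMLN. LF mouse 3 was the lowest and AMLN mouse 4 the lowest of their groups in both genotypes, and the diets overlapped through AMLN mouse 4. The log2 fold changes were 1.16 (SE 0.51) and 0.95 (SE 0.36). Gstm2 was higher in every TSP1F/F AMLN mouse than in any LF mouse (1.28, SE 0.36), and Gstm5 was lower in TSP1ΔPf4 mice (−0.72, and −0.38 with DESeq2).

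Gstp1, the pi-class enzyme, was lower in every AMLN mouse than in any LF mouse of the same genotype. Its levels were 604, 698, 1192 and 1226 FPKM in TSP1F/F LF mice and 410.3, 603, 353 and 392 FPKM in AMLN mice. In TSP1ΔPf4 mice they were 560.2, 621, 1309 and 1076 FPKM on LF and 502, 477, 400.0 and 517 FPKM on AMLN. The margins were narrow, since TSP1F/F LF mouse 1 had 604 FPKM and AMLN mouse 2 had 603 FPKM. Log2 fold changes were −1.08 (SE 0.32, adjusted p 0.224) and −0.91 (SE 0.28, adjusted p 0.117) by edgeR. With DESeq2 they were −1.43 (adjusted p 0.00533), which passed, and −0.53. Its close copy Gstp2, at 1.13 FPKM on LF and 0.363 FPKM on AMLN in TSP1ΔPf4 mice, was lower too (−1.64, SE 0.55), but reads can be shared with Gstp1.

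Gstz1, which isomerises maleylacetoacetate in tyrosine breakdown, had log2 fold changes of −1.06 (SE 0.44) in TSP1F/F and −0.53 (SE 0.24) in TSP1ΔPf4 mice, which were −0.64 and −0.35 without LF mouse 3. DESeq2 gave −1.39 (adjusted p 0.0499), which passed, and −0.18. The membrane-bound Mgst1 was the most abundant transferase listed, at 2343, 2315, 4683 and 3037 FPKM in TSP1ΔPf4 LF mice and 1981, 1549, 1324 and 2124 FPKM in AMLN mice. LF mouse 3 was high, and the groups did not overlap (−0.83, SE 0.26; −0.46 with DESeq2). Gsta3 (−0.69), Gstt2 (−1.21) and Mgst3 (−0.58) were lower in TSP1ΔPf4 mice, and Gsto1 (−0.63), a thioltransferase, was lower in TSP1F/F mice. DESeq2 gave −0.34 for Gsta3, −0.20 for Mgst3 (−0.26 by edgeR without LF mouse 3) and −0.98 for Gsto1, and Gstt2 was −1.56 by edgeR without AMLN mouse 4 (adjusted p 0.0459). The plot of levels by mouse shows 9 of the members, with higher means on AMLN for Gstm3, Gsta1 and Gstm1 and a lower one for Gstp1.

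**Figure D2:**
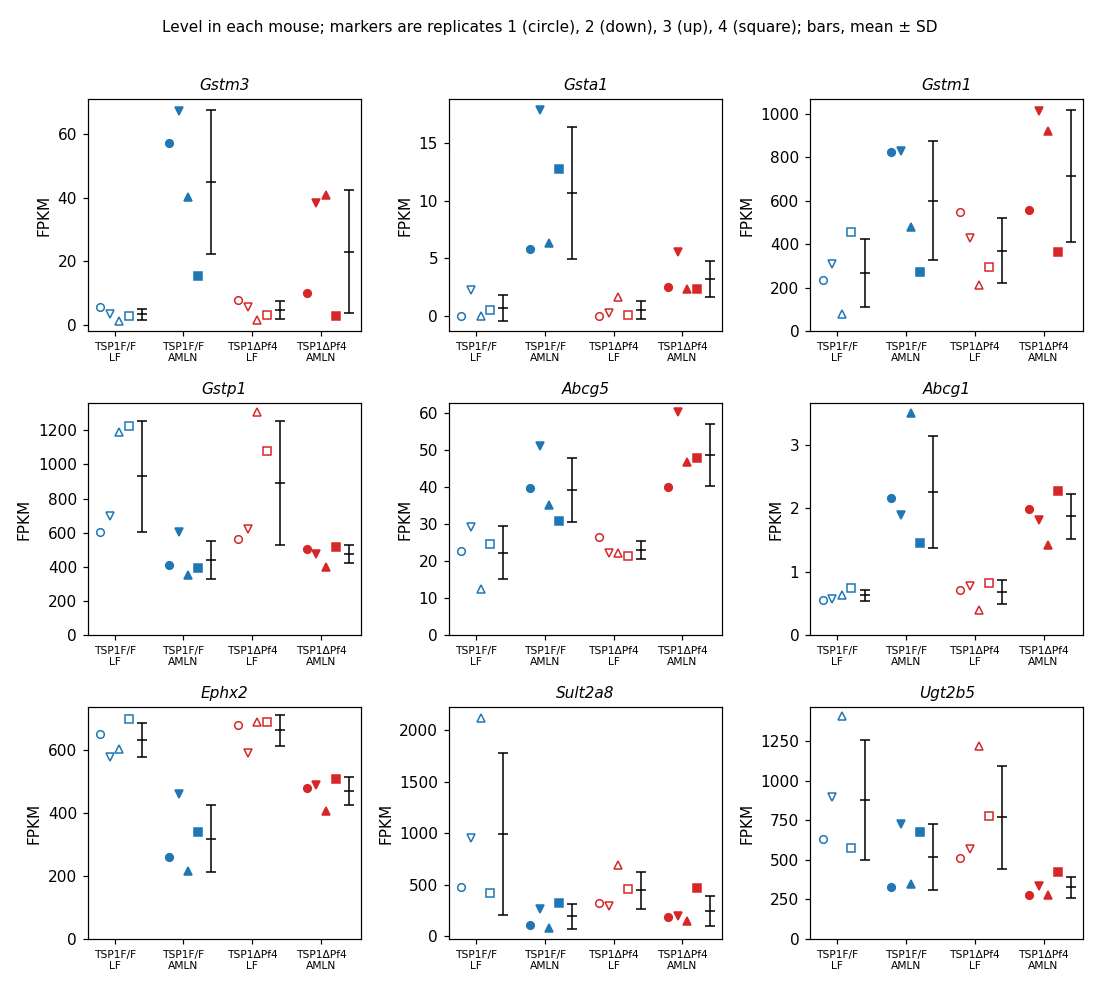
Level of 9 members in each liver in FPKM. Points are mice, bars the mean ± SD (n = 4), and panels show LF and AMLN groups of TSP1F/F and TSP1ΔPf4 mice. Gstm3 reached 15.5 to 67.1 FPKM in TSP1F/F AMLN mice and no more than 5.61 FPKM on LF, and Ephx2 reached at most 509 FPKM in AMLN mice and at least 578 FPKM in LF mice.

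The stretches before the start of the called members are shown because they are where control elements of such genes usually lie, and those of Gstp1 and Gstp2 because the pair was lower together. They come from RefSeq (GRCm38.p6, windows of 250 bases before to 50 after each start), are printed 5′ to 3′ on the strand of the gene, and leave out bases that an annotated exon covers, and for Gstp1 and Gstp2 only the 29 bases around a motif match are printed. Capitals mark a match to a searched motif.
Gstm3: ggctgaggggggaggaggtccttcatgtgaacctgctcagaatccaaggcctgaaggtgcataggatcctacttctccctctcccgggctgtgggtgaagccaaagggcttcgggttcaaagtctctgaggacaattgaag
Gsta1: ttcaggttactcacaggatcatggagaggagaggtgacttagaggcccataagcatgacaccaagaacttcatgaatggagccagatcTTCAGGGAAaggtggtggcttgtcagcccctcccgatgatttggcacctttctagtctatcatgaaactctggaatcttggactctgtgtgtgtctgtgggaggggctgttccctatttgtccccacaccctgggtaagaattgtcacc
Abcg5: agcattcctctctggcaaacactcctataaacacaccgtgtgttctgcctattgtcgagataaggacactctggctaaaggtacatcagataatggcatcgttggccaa
Gstp1: ctccaacgtgtTGAGTCAgcatccggggc
Gstp2: ctccaacgtgtTGAGTCAgcatccggggc
Gstm3 is chr3:107969284-107969424 (minus strand), Gsta1 chr9:78230419-78230655 (plus strand), Abcg5 chr17:84683012-84683120 (minus strand), Gstp1 chr19:4037969-4037997 and Gstp2 chr19:4042293-4042321 (minus strand). The Gstm3 and Abcg5 windows held none of the searched motifs.

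The table of promoters matched 59 of the 73 members, and those without an entry included Abcc1, Abcc3, Abcg1, Akr1b3, Akr1c20, Aldh1l2, Ces1d, Ces1f, Ces3a, Ephx2, Gstt2, Sult2a7 and Ugt3a2. Motifs were searched on both strands of whole windows, and the share of all 32851 windows with a match is given as the background. TGANTCA, the letters of an AP-1 site, matched 7 members and 7 of 68 member windows, beside 7.81% of all windows. By direction the members were 0 of the 24 with higher and 7 of the 35 with lower levels (Gstm5, Gstp1, Gstp2, Sult1b1, Sult2a8, Ugt1a6a and Ugt2b35). In Gstp1 and Gstp2 the match stands 74 and 89 bases before the RefSeq start within the 29 bases printed, which are the same in both. TTCNNNGAA, the letters bound by STAT5, matched 5 of the 24, 5 of the 35 and 10 of 68 member windows, beside 8.30%. The match of Gsta1 stands 162 bases before its start.

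TGACNNNGC, the core of the antioxidant response element, matched 3 of the 24, 5 of the 35 and 9 of 68 member windows, beside 12.4%. It can overlap TGANTCA, as both begin with TGA. CAAAGTCCA, an HNF4A type element, matched Sult1b1 alone among members, beside 0.475%, and a repeat of AGGTCA spaced by 4 bases, which nuclear receptor pairs bind, matched no member, beside 0.0152%. A match describes letters in a window and is not evidence that a factor binds there.

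UDP-glucuronosyltransferases attach glucuronic acid to bilirubin, steroids and drugs, and all 8 listed were lower on AMLN. Ugt2b5, an abundant enzyme for steroids and phenols, had 631, 893, 1405 and 572 FPKM in TSP1F/F LF mice and 329, 723, 345 and 673 FPKM in AMLN mice. Levels in TSP1ΔPf4 mice were 508, 565, 1221 and 774 FPKM on LF and 276, 334, 277 and 420.0 FPKM on AMLN. Mouse 3 was the highest LF mouse in both genotypes, and the diets were separate only in TSP1ΔPf4 mice. The log2 fold changes were −0.76 (SE 0.39, adjusted p 0.628) and −1.23 (SE 0.29, adjusted p 0.0665) by edgeR, and DESeq2 gave an adjusted p of 0.00593 for the second. Without LF mouse 3 the first was −0.43.

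Ugt2a3 had log2 fold changes of −1.07 (SE 0.38) in TSP1F/F and −0.70 (SE 0.32) in TSP1ΔPf4 mice, the second −0.33 with DESeq2 and −0.41 without LF mouse 3. Ugt2b36 (−1.17, SE 0.38), at 394 to 1175 FPKM on LF and 184 to 460.3 FPKM on AMLN, and Ugt2b35 (−0.89) were lower in TSP1ΔPf4 mice. They were −0.78 and −0.50 with DESeq2 and −0.74 and −0.52 without LF mouse 3. Ugt3a1 (−1.03) and Ugt3a2 (−0.78; 191 FPKM on LF and 111 FPKM on AMLN), which belong to a family that uses other sugars, were lower in TSP1F/F mice, at −0.68 and −0.46 without LF mouse 3. Ugt1a6a, an enzyme for planar phenols, was lower in TSP1F/F mice (−1.22, SE 0.50), and Ugt1a7c had 0.781, 0.0572, 0 and 2.703 FPKM on LF and 0.166, 0.107, 0.0605 and 0.0408 FPKM on AMLN in TSP1ΔPf4 mice. Its lower mean rested on LF mice 1 and 4, with 215 of 282 LF reads in 1 mouse, and it did not pass the filter on low counts. Both share their last exons with other Ugt1a genes, so their counts are uncertain.

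Sulfotransferases attach sulfate to hormones, bile acids and phenols, and the listed ones went in both directions. Sult2a8, an enzyme of the mouse liver that sulfates bile acids, had 478, 954, 2119 and 415 FPKM in TSP1F/F LF mice and 109, 260.3, 77.5 and 322 FPKM in AMLN mice. In TSP1ΔPf4 livers the levels were 326, 293, 695 and 462 FPKM on LF and 191, 191, 143 and 464 FPKM on AMLN. The diets were separate in TSP1F/F mice (−2.37, SE 0.62, adjusted p 0.164 by edgeR; −2.69, adjusted p 0.000618 with DESeq2), and in TSP1ΔPf4 mice (−0.84, SE 0.39) AMLN mouse 4 lay within the LF range. Without TSP1ΔPf4 AMLN mouse 4 the second value was −1.34, without LF mouse 3 −0.54 and with DESeq2 −0.50, and without TSP1F/F LF mouse 3 the first was −1.68.

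Sult1e1, the estrogen sulfotransferase, was almost absent on LF in TSP1F/F mice, at 0, 0, 0.311 and 0.302 FPKM, and had 7.99, 12.3, 1.07 and 2.24 FPKM on AMLN. Every AMLN mouse was above every LF mouse, with mice 1 and 2 the highest. The log2 fold change was 5.19 (SE 1.13) with an adjusted p of 0.0877 by edgeR and 0.000165 with DESeq2. Its neighbours Sult1b1 (−1.12, SE 0.31), which acts on thyroid hormones, and Sult1d1 (−0.83), which acts on catecholamines, were lower in TSP1ΔPf4 mice. Sult1d1 was −0.44 with DESeq2 and −0.35 without LF mouse 3.

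Sult2a7, next to Sult2a8, had 6.40, 4.23, 16.7 and 2.53 FPKM in TSP1ΔPf4 LF mice and 1.31, 2.28, 1.52 and 1.35 FPKM in AMLN mice. The groups were separate, with LF mouse 3 high (−2.20, SE 0.52, adjusted p 0.0678 by edgeR; −1.44 without that mouse). Sult1a1, the phenol sulfotransferase, was lower in each TSP1ΔPf4 AMLN mouse than in any LF mouse, at 253 FPKM on LF and 197 FPKM on AMLN (−0.36, SE 0.19). It was −0.06 with TMM and −0.05 with DESeq2, so this difference depended on the scaling. With the authors' size factors Sult1a1 was −0.35.

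ABC transporters pump conjugates, bile acids and sterols out of cells. Abcg5 (ENSMUSG00000040505, chr17:84658234-84683011, minus strand) encodes, with Abcg8, the sterol pump of the bile canaliculus. It had 26.6, 22.1, 22.2 and 21.2 FPKM in TSP1ΔPf4 LF mice and 39.9, 60.1, 46.6 and 47.7 FPKM in AMLN mice. In TSP1F/F mice it had 22.7, 29.2, 12.4 and 24.7 FPKM on LF and 39.6, 50.9, 35.1 and 30.7 FPKM on AMLN. All 8 AMLN mice lay above all 8 LF mice.

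In TSP1ΔPf4 mice Abcg5 rose with a log2 fold change of 1.08 (SE 0.20) and an adjusted p of 0.0467 by edgeR, and in TSP1F/F mice the log2 fold change was 0.81 (SE 0.29; 0.46 with DESeq2) with an adjusted p of 0.348. The call in TSP1ΔPf4 mice was lost, with adjusted p between 0.0570 and 0.162, in the 6 fits without AMLN mouse 1, 2 or 3 or LF mouse 1, 2 or 4. It was also lost with the mouse number as a block (1.07, adjusted p 0.144 by edgeR). Abcg8 was higher in TSP1ΔPf4 mice as well, at 17.5, 20, 9.8 and 19 FPKM on LF and 28.2, 40.2, 28.5 and 26.2 FPKM on AMLN (0.89, SE 0.26). The RefSeq starts of Abcg5 and Abcg8 lie on opposite strands with 109 bases between them, the stretch printed above. In the GENCODE M21 coordinates Abcg8 begins at chr17:84676302, inside Abcg5. There the gene bodies overlap, so part of their reads may be shared.

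Abcg1, which exports cholesterol to lipoproteins from macrophages and other cells, had 0.552, 0.567, 0.637 and 0.748 FPKM in TSP1F/F LF mice and 2.16, 1.90, 3.50 and 1.46 FPKM in AMLN mice. Those of TSP1ΔPf4 mice were 0.705, 0.772, 0.402 and 0.822 FPKM on LF and 1.99, 1.81, 1.43 and 2.28 FPKM on AMLN. The diets were separate in both genotypes. Its log2 fold changes were 1.85 (SE 0.38, adjusted p 0.0752) and 1.47 (SE 0.30, adjusted p 0.0525) by edgeR. The first passed with DESeq2 (1.45, adjusted p 0.00700), and the second with TMM scaling (adjusted p 0.0307), with DESeq2 (adjusted p 9.85e-06) and without LF mouse 3 (adjusted p 0.0476).

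Abcc4, which moves bile acids and conjugates into blood, had log2 fold changes of 2.92 (SE 1.08) in TSP1F/F and 1.22 (SE 0.40) in TSP1ΔPf4 mice, with separate diets in both. Abcg3, a rodent relative of Abcg2, had 1.84 (SE 0.73; 2.90 without LF mouse 3) and 1.65 (SE 0.46). Abcc12 had 3.25 (SE 1.22) in TSP1F/F mice at a mean of 0.0155 FPKM on LF and 0.170 FPKM on AMLN. LF mouse 4 was the only LF mouse with reads, so the 7.78 fitted without it compares with an empty group and gives no fold. In TSP1ΔPf4 mice Abcc12 did not pass the filter on low counts. Abcc3, the basolateral exporter of glucuronides, was the most abundant of the Abcc genes, at 17.7, 25.6, 16.9 and 34.2 FPKM on LF and 43.2, 49.8, 43.7 and 26.1 FPKM on AMLN in TSP1F/F mice (0.79, SE 0.31; 0.43 with DESeq2), where AMLN mouse 4 overlapped the LF mice. Abcc5 (1.44) and the P-glycoprotein gene Abcb1b (1.23) were higher in TSP1F/F mice, and Abcb1a (1.11) and Abcc1 (1.08), an exporter of glutathione conjugates, in TSP1ΔPf4 mice.

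Other genes of the same pathways were followed in 7 lists with 124 genes. Of these 30 were tested in TSP1F/F mice, with 1 called (2.48% over all genes tested), 25 at an unadjusted p under 0.05 (80.2% over all genes) and 14 called by DESeq2 (35.4%). In TSP1ΔPf4 mice 45 were tested, with 3 called (2.98% over all genes), 41 at an unadjusted p under 0.05 (85.8%) and 15 called by DESeq2 (44.5%). These genes too were listed through the diet contrast, so their directions are a description.

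Among hepatocyte uptake transporters, Slco1a1, a carrier of organic anions that is typical of the male mouse liver, had 96.3, 92.1, 286 and 79.9 FPKM in TSP1F/F LF mice and 11.3, 12.8, 5.10 and 6.54 FPKM in AMLN mice. All AMLN mice were far below all LF mice. Slco1a1 fell with a log2 fold change of −3.95 (SE 0.51) and an adjusted p of 0.0138 by edgeR, a call that was lost without AMLN mouse 3 or LF mouse 4 (highest adjusted p 0.0639). The call was also lost with the mouse number as a block. In TSP1ΔPf4 mice it had 64, 62.2, 94.9 and 66 FPKM on LF and 38.1, 21.4, 6.80 and 50.6 FPKM on AMLN, with a log2 fold change of −1.30 (SE 0.47, adjusted p 0.164). The interaction of diet and genotype for Slco1a1 was 2.66 (SE 0.72) with an adjusted p of 0.0558 by edgeR, and it passed with TMM (2.95, adjusted p 0.0499) and DESeq2 (2.95, adjusted p 0.00416) and in 1 of 16 fits without 1 mouse. Of 11 genes in this list, 5 were listed in TSP1F/F mice, 4 of them lower, and 5 in TSP1ΔPf4 mice, all lower, among them Slc22a7 (−1.23), an organic anion transporter.

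Of 18 other conjugation enzymes 9 were listed in TSP1ΔPf4 mice, 8 of them lower. Nat8, which acetylates cysteine conjugates in the last step of mercapturate formation, had 30.1, 31.8, 69.7 and 57.4 FPKM on LF and 12.9, 16, 8.80 and 16.9 FPKM on AMLN, and fell with a log2 fold change of −1.79 (SE 0.32) and an adjusted p of 0.0415 by edgeR. Gnmt, the abundant glycine N-methyltransferase, had 1993, 2268, 3651 and 2502 FPKM on LF and 1054, 1087, 721 and 1188 FPKM on AMLN, and fell with a log2 fold change of −1.36 (SE 0.24) and an adjusted p of 0.0409. For both, every AMLN mouse was below every LF mouse, and both calls held in 3 of 8 fits without 1 mouse (highest adjusted p 0.133 and 0.136). Listed in TSP1F/F mice were 3, all lower, with Keg1 (−1.63), a glycine acyltransferase, and Nat8f1 (−1.04) the farthest from 0. Acsm3, an acyl-CoA synthetase, had opposite signs, −0.63 in TSP1F/F and 0.67 in TSP1ΔPf4 mice, with an interaction of 1.30 (SE 0.31, adjusted p 0.05 by edgeR, just above the threshold), which passed with TMM (1.66, adjusted p 0.0465), the authors' size factors (adjusted p 0.0466) and DESeq2 (1.62, adjusted p 0.000101) and in 1 of 16 fits without 1 mouse.

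Of 20 genes for NADPH supply and other Nrf2 targets, 5 were listed in TSP1F/F mice (4 higher) and 7 in TSP1ΔPf4 mice (3 higher). Hmox1, the haem oxygenase, had 5.49, 5.85, 4.73 and 6.39 FPKM in TSP1ΔPf4 LF mice and 10.7, 13.5, 14.8 and 14.9 FPKM in AMLN mice. Each AMLN mouse was above each LF mouse, and Hmox1 rose with a log2 fold change of 1.26 (SE 0.21) and an adjusted p of 0.0316 by edgeR, which held in 2 of 8 fits without 1 mouse (highest adjusted p 0.116). Its log2 fold change in TSP1F/F mice was 1.65 (SE 0.40, adjusted p 0.131), and the farthest from 0 were Cbr3 (2.75), a carbonyl reductase, and G6pdx (2.04), which supplies NADPH.

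Of 21 genes of glutathione synthesis and turnover, 5 were listed in TSP1F/F mice (4 higher) and 6 in TSP1ΔPf4 mice (1 higher, Gclc). The farthest from 0 were Chac1 (2.95), which degrades glutathione, and Gpx7 (1.49) in TSP1F/F mice and Gpx4 (−1.03), the lipid hydroperoxide peroxidase, and Chac2 (−0.96) in TSP1ΔPf4 mice. For the supply of UDP-glucuronic acid and sulfate, 3 of 13 genes were listed in each genotype, 2 higher and 1 lower. Ugdh, which makes UDP-glucuronic acid, had log2 fold changes of 0.65 and 0.53, Gusb, which cleaves glucuronides, 1.08 and 0.59, and Slc35b2, a carrier of the sulfate donor, −0.82 in TSP1ΔPf4 mice.

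Of 19 further oxidases, reductases and hydrolases, 6 were listed in TSP1F/F mice, all lower, and 10 in TSP1ΔPf4 mice, 9 lower. Hsd11b1, which activates glucocorticoids, had −1.10 and −0.89, Adh4, an alcohol dehydrogenase, had −0.94 in TSP1F/F mice, and Aadac, a microsomal esterase, had −1.13 in TSP1ΔPf4 mice. Of 22 regulators, 4 were listed in TSP1F/F mice (1 higher) and 5 in TSP1ΔPf4 mice (5 higher). Bcl6 (−1.01) and Nr0b2 (−0.98), both repressors of transcription in liver, were the farthest from 0 in TSP1F/F mice, and Stat5a (1.03) and Mafk (0.96), a partner of Nrf2, in TSP1ΔPf4 mice.

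Markers of the liver's cell types differed between the diets too. Of 16 hepatocyte markers, 5 were listed in TSP1F/F mice, all lower, with summed levels of 6064, 7603, 6366 and 8425 FPKM on LF and 4199, 5477, 2629 and 4080 FPKM on AMLN and Ttr the most abundant. In TSP1ΔPf4 mice 8 were listed, 7 lower and Fga higher, with sums of 34901, 34557, 43921 and 37085 FPKM on LF and 23139, 18931, 20582 and 24850 FPKM on AMLN and Apoa2 the most abundant. None of these was called by edgeR, beside 2.48% and 2.98% of all genes tested, while 5 of 5 and 7 of 8 had an unadjusted p under 0.05, beside 80.2% and 85.8%, and DESeq2 called 4 and 2, beside 35.4% and 44.5%. No listed hepatocyte marker was at 0 in a whole group.

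Of 12 macrophage markers 10 were listed in each genotype, all higher, with 4 called in TSP1F/F mice (Csf1r, Itgax, Trem2 and Gpnmb) and 2 in TSP1ΔPf4 mice (Csf1r and Gpnmb), beside the same shares over all genes. Of these calls Itgax was lost in every fit without 1 mouse, and Csf1r held in 3 of 8 such fits in TSP1F/F and 4 of 8 in TSP1ΔPf4 mice. Without LF mouse 4 Trem2 in TSP1F/F mice (adjusted p 0.0694) and Gpnmb in TSP1ΔPf4 mice (adjusted p 0.066) were lost. Their summed levels, mostly Lyz2, were 31.8, 81.2, 300.3 and 33.8 FPKM in TSP1F/F LF mice and 232, 309, 332 and 1206 FPKM in AMLN mice. In TSP1ΔPf4 mice the sums were 33.3, 35.4, 76.2 and 41.9 FPKM on LF and 103, 86.0, 91.4 and 149 FPKM on AMLN. LF mouse 3, which stood apart in the enzyme genes, also had the highest macrophage sum of its LF group in both genotypes, and TSP1ΔPf4 AMLN mouse 4 the highest of its group.

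Stellate cell markers were higher as well, 7 of 12 listed in TSP1F/F mice (3 called, Col1a2, Col3a1 and Timp1, with Timp1 at 0 in every LF mouse, and called in 1, 4 and 4 of 8 fits without 1 mouse) and 5 in TSP1ΔPf4 mice (Lox at 0 in every LF mouse), with Col3a1 the most abundant and mean sums of 2.63 and 20.3 FPKM on LF and AMLN in TSP1F/F and 2.94 and 7.92 FPKM in TSP1ΔPf4 mice. Kupffer cell markers had 4 of 7 listed in TSP1F/F mice, 3 higher and Marco lower, and 2 in TSP1ΔPf4 mice, with Vsig4 called, which held in 2 of 8 fits without 1 mouse (highest adjusted p 0.162). Cholangiocyte markers had 3 and 2 of 9 listed, all higher, and endothelial markers 3 and 3 of 9, of which Kdr alone was lower. T cell markers had 3 and 2 of 8 listed, all higher, with Cd8a called in TSP1F/F mice but in no fit without 1 mouse (adjusted p 0.0726 to 0.154). B cell (Cd79b) and neutrophil (S100a8) markers had 1 gene listed, in TSP1F/F mice, and adipocyte markers none. The part of these cell types in the members' levels was not tested.

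**Figure D3:**
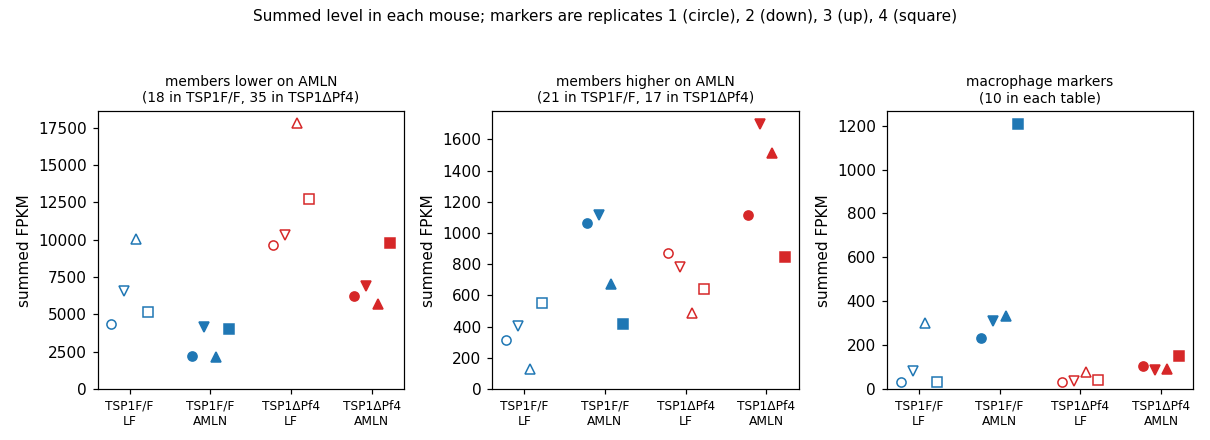
Summed FPKM per mouse of the members lower on AMLN, of the members higher on AMLN and of the macrophage markers. The vertical axis is the sum in FPKM and points are mice (n = 4 per group). The sets of lower and higher members differ between the genotypes (18 and 35 genes, 21 and 17 genes), so levels are compared between diets only, and LF mouse 3 is the highest LF mouse for the lower members and the macrophage markers in both genotypes.

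Whether the genotypes differed on the AMLN diet was tested over the genes in both tables, which include 18 members. Gsta1 was lower in TSP1ΔPf4 mice, at 2.55, 5.55, 2.37 and 2.34 FPKM against 5.82, 17.9, 6.37 and 12.8 FPKM in TSP1F/F mice. The groups did not overlap, and the nearest mice had 5.55 and 5.82 FPKM. Gsta1 fell with a log2 fold change of −1.74 (SE 0.46) and an adjusted p of 0.0333 by edgeR. It was 1 of 18 members called, where 9% of all genes tested were called and 8.46% were called lowered, and 1 of 18 whose groups did not overlap, beside 14.6% of all genes in both tables.

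The Gsta1 call was lost with TMM scaling (−1.45, adjusted p 0.0824), in 1 fit of all 16 mice (−1.74, adjusted p 0.369) and without TSP1F/F AMLN mouse 2 or 4 or TSP1ΔPf4 AMLN mouse 1, 3 or 4 (adjusted p 0.0709 to 0.0990). Mice that share a number resembled each other in this comparison, and with the number as a block 3 members were called, Gsta1 (−1.68, adjusted p 0.00215), Gstm3 (−1.43, adjusted p 0.00893) and Akr1c6 (−0.81, adjusted p 0.0499), with 13 genes raised and 103 lowered in all. The labels do not say what a shared number means, so these calls rest on an assumed pairing. Without the block Gstm3 had −0.97 (SE 0.66, adjusted p 0.409) and Akr1c6 −0.82 (SE 0.40, adjusted p 0.227) by edgeR.

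The 18 members were spread around 0, with 9 higher and 9 lower in TSP1ΔPf4 mice and a median log2 fold change of −0.000317, whereas the median of all 733 genes tested was −0.38. With TMM these medians were 0.28 and −0.10, and with DESeq2 0.34 and −0.03. The calls over all genes, raised and lowered, were 4 and 62 (11 and 37 with TMM, 17 and 56 with DESeq2, together 9.96% of genes). Ephx2 (0.56, SE 0.30), Aldh1b1 (0.47), Ces1d (0.45), Sult2a8 (0.37), Abcg5 (0.31), Gstm1 (0.25), Ces1f (0.24), Gstp1 (0.11) and Ugt2a3 (0.05) had positive values, of which Sult2a8 was −0.13 without TSP1ΔPf4 AMLN mouse 4. Abcg3 (−0.98), Abcc12 (−0.87), Ugt2b5 (−0.66), Abcg1 (−0.27), Gstz1 (−0.20) and Abcc4 (−0.05) had negative values, and the last 3 were positive with DESeq2 (0.09, 0.13 and 0.30). With DESeq2 16 of the 18 values moved by over 1.5 times and with TMM 14, among them Gstp1 (0.43 with DESeq2), Gstm1 (0.54) and Ces1d (0.79). Without 1 mouse 13 of the 18 values moved by over 1.5 times in at least 1 fit, Abcg3 to −0.51 without TSP1F/F AMLN mouse 4 and Ces1d to 0.03 without TSP1ΔPf4 AMLN mouse 4 among them. Of the 10 macrophage markers 9 were lower in TSP1ΔPf4 mice and 3 fell by the test, Lyz2 (−2.51, SE 0.54, adjusted p 0.0162), Trem2 (−3.06, SE 0.53, adjusted p 0.00533) and Gpnmb (−2.41, SE 0.46, adjusted p 0.0085), each lower in all 4 TSP1ΔPf4 mice than in any TSP1F/F mouse. Lyz2 was −1.59 without TSP1F/F AMLN mouse 4, and its call was lost without TSP1ΔPf4 AMLN mouse 2 (adjusted p 0.0602). Of 2 Kupffer cell markers both were lower and Cd5l fell (−1.31, SE 0.35, adjusted p 0.0333), a call that TMM (adjusted p 0.0824), DESeq2 (adjusted p 0.0634) and the fit of all 16 mice (adjusted p 0.0815) did not make and that held in 2 of 8 fits without 1 mouse (−0.84 without TSP1F/F AMLN mouse 4). All 5 stellate cell markers were lower, with a median of −0.14 beside −0.38 over all genes. Most of the 5 thus lay between −0.14 and 0, and their direction may depend on the scaling. Col3a1 fell (−1.72, SE 0.39, adjusted p 0.0182 by edgeR and 0.00738 with DESeq2), a call lost without TSP1F/F AMLN mouse 3 (adjusted p 0.0512) or TSP1ΔPf4 AMLN mouse 2 (adjusted p 0.0665). The share called lowered over all genes was 8.46%. The part of those cells in the Gsta1 difference was not tested.

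**Figure D4:**
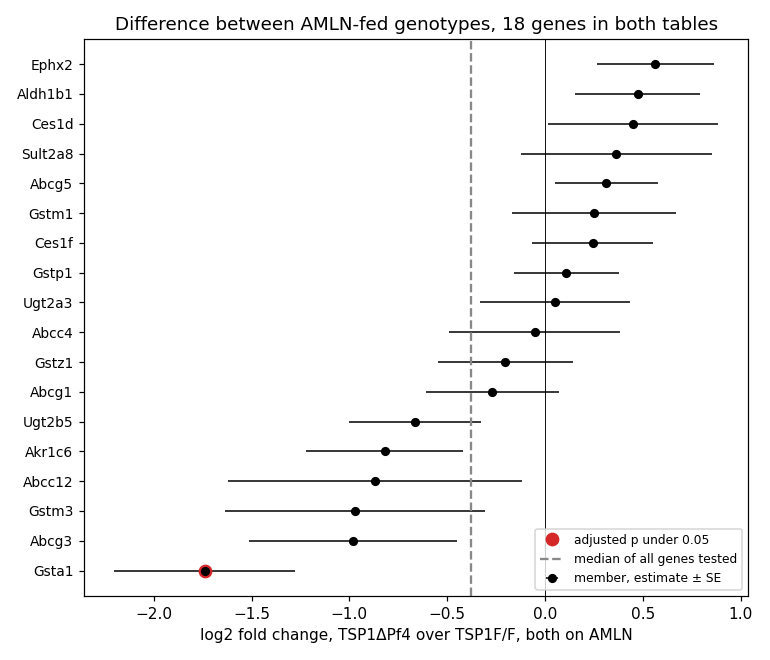
Difference between genotypes on the AMLN diet for the 18 members in both tables. The horizontal axis is the log2 fold change of TSP1ΔPf4 over TSP1F/F mice from edgeR with its standard error (n = 4 per genotype), and the dashed line marks the median of all 733 genes tested, −0.38. Gsta1, the member called, lies at −1.74 and the others on both sides of 0.

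On the LF diet the same comparison had 16 members to test. Of these 16 members 0 were called by edgeR, where 0% of 640 genes were called, and 1 had an unadjusted p under 0.05, beside 6.88% of all genes, and DESeq2 called 0 members, beside 0.156%. Here too most mice that share a number resembled each other, and with the number as a block 4 members and 85 genes had an unadjusted p under 0.05 and 0 were called. Without the block that member was Sult2a8, at a log2 fold change of −1.16 (SE 0.50, adjusted p 0.676), which was −0.47 without TSP1F/F LF mouse 3. The groups overlapped for 18 of 18 members, where 4.52% of all genes did not overlap. The members' median was 0.06 and that of all genes 0.03, with Gsta1 and Abcc12 not past the filter on low counts. All 16 values moved by over 1.5 times in at least 1 fit without a mouse, and 4 turned their sign (Abcg3, Abcg5, Gstp1 and Ugt2b5).

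The interaction, the diet effect in TSP1ΔPf4 mice minus that in TSP1F/F mice over all 16 mice, was called for 0 of 18 members, where 0.409% of 734 genes were called. At an unadjusted p under 0.05 there were 0 members, beside 15% of all genes, and DESeq2 called 0 members, beside 5.99%. Sult2a8 had the largest positive value, 1.52 (SE 0.77, adjusted p 0.360; 0.84 without TSP1F/F LF mouse 3), followed by Gstz1 (0.53) and Ephx2 (0.50). Abcc4 (−1.69, SE 1.11), Gstm3 (−1.42, SE 0.94, adjusted p 0.560) and Gsta1 (−1.28, SE 1.49) had the most negative, and Gsta1 was 0.53 without TSP1ΔPf4 LF mouse 3. In fits without 1 mouse 7 of the 18 values turned their sign, with TMM 6 and with DESeq2 5. The members' median was −0.20 and that of all genes −0.34 (0.05 with TMM, 0.01 with DESeq2), and the calls over all genes, raised and lowered, were 0 and 3 (8 and 7 with TMM, 12 and 32 with DESeq2, 2 and 6 with the authors' size factors). So Gstm3 in TSP1F/F mice and Abcg5 in TSP1ΔPf4 mice, each called in 1 genotype, were not shown to differ between genotypes in their diet effect.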

How the data were processed

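RNA from 16 livers was sequenced as paired reads and, per the deposited notes, aligned with HISAT2 to mm10, whereas the paper names STAR, and which of them made the counts is not known. The authors deposited 2 tables, 1 for each genotype, with a raw count per gene and library, a signal normalized by 1 size factor per library, FPKM on the deposited gene length, and a DESeq2 p-value and adjusted p for the diet. The authors' p-value was read only to see how genes were chosen (2558 in TSP1F/F and 3399 in TSP1ΔPf4, 752 in both) and over how many genes it was adjusted. Annotation release and strand use of the counting are not given; 69 of 73 members have the coordinates of GENCODE M21.

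Library totals were computed from count, length and FPKM, and used as library sizes. Counts were tested with edgeR 4.0.16 (limma 3.58.1, R 4.3.3; filterByExpr, glmQLFit, glmQLFTest), with only the groups compared in each fit and all 16 mice for the interaction. Benjamini-Hochberg adjustment ran over 16784 and 13927 genes for diet and over genes in both tables for genotype and interaction. Calls needed an adjusted p below 0.05 together with a log2 fold change beyond 0.25 in either direction. Because the tables hold selected genes, the spread between mice was estimated from these only. The same holds for the scaling factors of TMM and DESeq2. Library totals and the authors' size factors were instead read from the deposited values of each library. Alternatives were TMM, the authors' size factors, DESeq2 1.42.0, no filter, adjustment over genes tested, mouse number as a block, all 16 mice, and leaving out each mouse. Python 3.11.15 with pandas 2.3.3, numpy 2.4.6 and matplotlib 3.10.9 made summaries and figures. On simulated counts the pipeline made 0 false calls for TSP1F/F and 1 for TSP1ΔPf4 mice, and recovered 10% and 32% of 2-fold changes. It tested 2074 and 3077 genes there, which include the genes given a change.

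Members and lists were chosen with earlier results of these data known. Members named with values are those in both tables, those called, and in each family and table the 2 highest in mean FPKM and the 2 with the largest absolute log2 fold change, with every other member named once. Of the pathway lists, genes called are named or, if none, the 2 farthest from 0, and Acsm3, Gclc, and the values of Hmox1 in TSP1F/F mice and of Slco1a1 in both were added after their values were seen. Whether mice that share a number resemble each other was checked by correlating their deviations from the group mean over genes. For genotype on AMLN, r was 0.285, 0.134, 0.311 and 0.426 (mean of other pairs −0.0943). For diet in TSP1F/F mice it was 0.305, −0.118, −0.353 and −0.201, for diet in TSP1ΔPf4 mice −0.0895, 0.307, −0.498 and −0.0503, and for genotype on LF 0.245, 0.155, 0.504 and −0.0969. Blocked values are therefore printed beside both genotype comparisons. The labels do not tie mice of the same number to each other, so the block is an assumption. Replicates differed beyond counting error in all 24 pairs (median squared z 4.2 to 43.5), and floors (3 counts per library) cover counting error only. One member that enters the counts and medians is not reported here by itself.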

Additional observations from a re-analysis of the deposited data

Results flagged for a closer look

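In 15 of 176 groups of 4 mice (members with at least 10 counts in the highest mouse), 1 mouse lay far from the other 3, with most of the range of the group between it and its nearest mouse. The groups are not independent, since members share mice. In TSP1F/F LF mice the highest was mouse 3 for Abcg3 (1.09 FPKM), mouse 4 for Abcc12 (0.0621 FPKM) and mouse 2 for Aldh18a1 (0.171 FPKM). In TSP1F/F AMLN mice Akr1b10 was lowest in mouse 1 (0.436 FPKM). In TSP1ΔPf4 LF mice the highest was mouse 3 for Akr1c14 (198 FPKM), Akr1c20 (150 FPKM), Sult1b1 (33.5 FPKM) and Sult1d1 (232 FPKM) and mouse 4 for Abcg3 (0.359 FPKM), while Ephx2 was lowest in mouse 2 (591 FPKM). In TSP1ΔPf4 AMLN mice the highest was mouse 3 for Abcc4 (0.714 FPKM), mouse 2 for Abcg8 (40.2 FPKM) and Gsta1 (5.55 FPKM), and mouse 4 for Sult2a8 (464 FPKM) and Ugt2b35 (85.5 FPKM).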

How the results depend on the processing

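The counts of members with higher and lower levels stayed near the printed values under all alternatives, at 17 to 19 higher and 18 lower in TSP1F/F mice and 16 higher and 34 to 35 lower in TSP1ΔPf4 mice when 1 mouse was left out. The counts of calls did not. For diet in TSP1F/F mice (1 member, 52 genes), DESeq2 called 16 members and 741 genes, adjustment over genes tested 22 members and 1124 genes, no filter 83 genes and the block 10 genes. Leaving out 1 mouse gave 0 to 1 members and 2 to 61 genes. For diet in TSP1ΔPf4 mice (1 member, 92 genes), TMM called 4 members and 198 genes, DESeq2 18 members and 1376 genes, adjustment over genes tested 37 members and 2187 genes and the block 0 members and 4 genes. Leaving out 1 mouse gave 0 to 5 members (5 without AMLN mouse 4, 3 without LF mouse 3) and 1 to 182 genes. Adjustment over fewer genes makes more calls by construction. Of the diet calls in the pathway and marker lists, the block still made only those of Gpnmb in both genotypes and Trem2 in TSP1F/F mice. For genotype on AMLN (1 member, 66 genes), TMM and the fit of all 16 mice called 0 members, the block 3 members and 116 genes, and leaving out 1 mouse 0 to 1 members and 22 to 84 genes. For genotype on LF (0 members, 0 genes), DESeq2 called 1 gene and leaving out 1 mouse 0 to 0. For the interaction (0 members, 3 genes), TMM called 15 genes, the authors' size factors 8, DESeq2 44, the block 0 and leaving out 1 mouse 0 to 24 genes, with 0 members throughout.

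Signs of members' values turned as follows, and no diet sign did. For genotype on AMLN, Abcc4 was 0.22 with TMM, 0.30 with DESeq2 and −0.35 to 0.12 without 1 mouse. Abcg1 was 0.090 with DESeq2 and −0.43 to 0.026 without 1 mouse. Gstz1 was 0.087 with TMM, 0.13 with DESeq2 and −0.41 to 0.034 without 1 mouse. Sult2a8 was −0.13 to 0.73 and Ugt2a3 −0.24 to 0.34 without 1 mouse. For genotype on LF (9 higher, 7 lower), 8 were higher and 8 lower with DESeq2 and with the authors' size factors, where Abcg5 turned, and 11 higher and 5 lower without TSP1F/F LF mouse 3, where Abcg3, Abcg5, Gstp1 and Ugt2b5 turned. For the interaction, Gsta1 was −3.13 to 0.53 without 1 mouse, and Akr1c6, Abcg3, Ces1f, Abcc12, Ces1d and Gstm1 also turned in 1 or more such fits. With TMM 6 members turned (Abcg1, Abcg3, Aldh1b1, Abcc12, Ces1d and Gstm1), and with DESeq2 the same without Abcc12. Other than these constructions, the cause was not tested. Akr1b7, Aldh1a2 and Aldh1l2 in TSP1F/F mice and Abcc12 and Ugt1a7c in TSP1ΔPf4 mice did not pass the filter on low counts, and the part of depth in this was not tested.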
